A study of Macaca mulatta with 8 samples.

Results

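FOS, FOSL2, NR4A2, ZFP36 and TNFAIP3 encode regulators whose messages are made fast and destroyed fast. The members are all probe sets to which the platform annotation gives exactly 1 of these symbols: 14 of the 52766 probe sets, for 5 of 14132 genes. VVM-GC samples are granulosa cells from rhesus macaque follicles matured in vivo under FSH followed by hCG, a gonadotropin given as the ovulatory stimulus, and PM-GC samples are granulosa cells collected earlier under FSH alone. Each group holds 4 RNA samples, each on 1 Affymetrix macaque array after 2 rounds of linear amplification, and all animals of both groups had received FSH. The source labels place the cells in cumulus-oocyte complexes and the series design in the follicle wall (mural cells). Neither says which animal gave which sample, whether animals were pooled, or how long after hCG the cells were taken, so p-values measure the spread between these samples, which may be partly technical.

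Immediate early genes need no new protein for their induction: kinases activated at the membrane modify factors already bound at their promoters. FOS and FOSL2 pair with JUN proteins to form the transcription factor AP-1. NR4A2 is an orphan nuclear receptor of the NR4A family, which in steroid-making cells is induced by gonadotropins acting through cyclic AMP. Many such messages carry AU-rich elements (AREs) in their tails. ZFP36, also called tristetraprolin, binds AREs and recruits the deadenylase that starts decay, including decay of its own message. TNFAIP3, also called A20, edits ubiquitin chains and shuts off NF-kB signalling, which in turn induces it.

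Relative to PM-GC, VVM-GC had more FOSL2 (2.46-fold), NR4A2 (1.59-fold) and ZFP36 message, and less FOS (2.10-fold lower). The FOS call was marginal and was lost in 10 of 15 alternative analyses. For NR4A2, 3 of 5 probe sets did not pass, nor did their average (limma adjusted p = 0.147). The size of the ZFP36 rise is uncertain, since its PM-GC signal lay below the median of the arrays. TNFAIP3 was higher in 3 of the 4 VVM-GC arrays, and the fourth, array 3, lay at the PM-GC level. Array 3 was also the lowest VVM-GC array for FOS, NR4A2 and ZFP36, but not for FOSL2. Values are log2 of the deposited intensity. A gene with several probe sets is read from its brightest, by the mean over all arrays, and a change is VVM-GC minus PM-GC. Adjusted p-values are from limma with Benjamini-Hochberg adjustment over all genes, or over all probe sets where a single probe set is described, and the threshold is 0.05. It was passed by 23.8% of all genes, 11.3% higher and 12.5% lower, with a median change of -0.09 over all genes. In 27.2% of genes the groups did not overlap, as in FOSL2, NR4A2 and ZFP36.

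**Figure D1:**
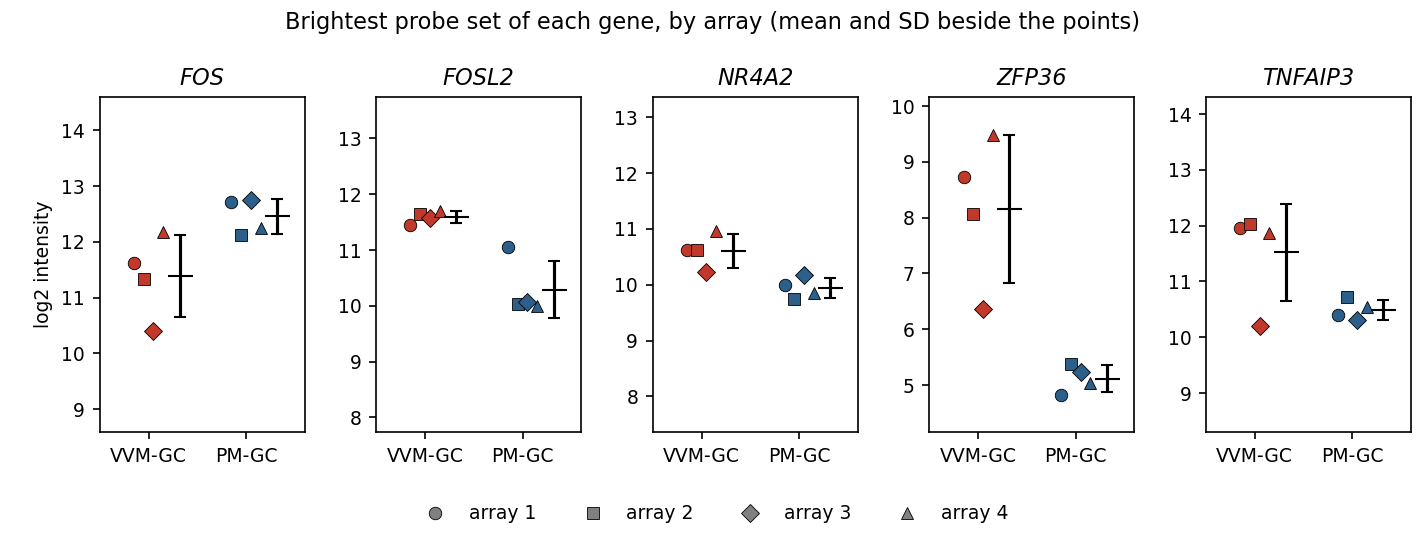
Log2 intensity (vertical axis, the same span of 6 units in every panel) of the brightest probe set of FOS, FOSL2, NR4A2, ZFP36 and TNFAIP3 in 4 VVM-GC arrays (red) and 4 PM-GC arrays (blue), with the symbol giving the array number and the bar the mean and SD. Array 3 (diamond) is the lowest VVM-GC point in every panel except that of FOSL2, and the groups do not overlap for FOSL2, NR4A2 and ZFP36.

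The median log2 intensity of the arrays lay between 5.44 and 5.54. It says little on quality, since the RMA processing of the submitters brings arrays to a common scale. No pair of arrays was identical. Arrays of the same group correlated at r = 0.9745 to 0.9844 in VVM-GC and 0.9843 to 0.9883 in PM-GC. The difference between the 3' and 5' control probe sets of ACTB, which grows as RNA is degraded, was 4.47 to 5.18 in VVM-GC and 4.70 to 4.80 in PM-GC, and the highest value was that of VVM-GC array 3. All 12 measured granulosa markers had mean signals above the median of the arrays. SERPINE2 was at 14.48 in VVM-GC and 14.55 in PM-GC, and INHA, the inhibin alpha subunit, at 13.50 in VVM-GC and 14.07 in PM-GC. Of the 12, none rose and 10 fell.

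FOSL2, also called FRA2, is the longer-lived FOS relative that follows FOS in AP-1. Its brightest probe set, MmuSTS.2660.1.S1_at, read 11.44, 11.65, 11.58 and 11.69 in VVM-GC arrays 1 to 4, against 11.05, 10.04, 10.07 and 10.003 in PM-GC arrays 1 to 4. The VVM-GC arrays were close together, and PM-GC array 1 stood above the rest of its group without reaching them. The means were 11.59 ± 0.11 in VVM-GC and 10.29 ± 0.51 in PM-GC (SD, n = 4 each), so FOSL2 rose by 1.30 (SE 0.23, limma adjusted p = 0.00255), or 2.46-fold. The second probe set, MmugDNA.30728.1.S1_at, gave 7.33 ± 0.21 in VVM-GC and 6.17 ± 0.39 in PM-GC, a change of 1.15 (SE 0.19, limma adjusted p = 0.003 over all probe sets). It deviated between arrays as the first did (r = 0.914 over the 8 deviations from group means). FOSL2 passed the threshold in all 15 alternatives that were run, with adjusted p of 7.39e-05 to 0.0117.

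FOS, the founding AP-1 subunit, has 1 probe set, MmugDNA.38565.1.S1_at. It read 11.62, 11.34, 10.41 and 12.18 in VVM-GC arrays 1 to 4, against 12.71, 12.12, 12.75 and 12.25 in PM-GC arrays 1 to 4. Only VVM-GC array 4 reached into the PM-GC range. FOS averaged 11.39 ± 0.74 in VVM-GC and 12.46 ± 0.32 in PM-GC (SD, n = 4 each), a change of -1.07 (SE 0.33, limma adjusted p = 0.0434 over all genes). The call is marginal: over all probe sets the adjusted p was 0.0582, and 10 of 15 alternatives lost the gene-level call, with adjusted p of 0.0117 to 0.107 over the 15. Without VVM-GC array 3 the change was -0.74 (adjusted p = 0.0503), and leaving out any other array except VVM-GC array 4 also took it past 0.05. FOS and FOSL2 thus stood on opposite sides of 0, FOS lower and FOSL2 higher in VVM-GC.

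NR4A2 has 5 probe sets, which fell into 2 sets by how they varied between arrays. The brightest, MmugDNA.28546.1.S1_at, read 10.62, 10.63, 10.22 and 10.97 in VVM-GC arrays 1 to 4, against 10.003, 9.75, 10.17 and 9.85 in PM-GC arrays 1 to 4. All VVM-GC values lay above all PM-GC values, array 3 of VVM-GC only just. The change was 0.67 (SE 0.17, limma adjusted p = 0.0171), from means of 10.61 ± 0.30 in VVM-GC and 9.94 ± 0.18 in PM-GC (SD, n = 4 each). MmugDNA.28543.1.S1_at rose by 1.12 (SE 0.22, limma adjusted p = 0.00722 over all probe sets) and its groups did not overlap either. These 2 probe sets deviated together (r = 0.837 over 8 arrays).

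The remaining NR4A2 probe sets gave another picture. MmugDNA.20818.1.S1_s_at, whose suffix marks probes that may match several transcripts, read 8.51, 8.13, 6.98 and 6.51 in VVM-GC arrays 1 to 4, against 7.44, 7.68, 6.41 and 6.75 in PM-GC arrays 1 to 4. Arrays 1 and 2 were high and arrays 3 and 4 low in both groups, and the groups overlapped. MmugDNA.3701.1.S1_at and MmugDNA.23169.1.S1_at followed the same course (r = 0.903 to 0.962 among the 3), while r with the first 2 probe sets was -0.516 to -0.171. Their changes were 0.46 (95% interval -0.53 to 1.46), 0.63 (-0.42 to 1.68) and 0.01 (-1.06 to 1.07), none past the threshold. MmugDNA.3701.1.S1_at lay below the array median in VVM-GC array 4 and PM-GC arrays 3 and 4. MmugDNA.23169.1.S1_at did so in VVM-GC arrays 3 and 4 and PM-GC array 3. Those values, which also enter the average of the 5 probe sets, are not shown to be above background. The average of all 5 probe sets differed by 0.58 with a limma adjusted p of 0.147, so the NR4A2 call does not extend to that average. Over all probe sets, MmugDNA.28543.1.S1_at passed in all 14 alternatives, whereas MmugDNA.28546.1.S1_at lost its call in 7 of them. Those were repeated quantile normalization (adjusted p = 0.0501), the replicate block (0.065) and the fits without VVM-GC array 1 or 2 or PM-GC array 1, 2 or 4 (0.0506 to 0.0669).

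The 3 genes most like MmugDNA.20818.1.S1_s_at in deviation were GFOD2 (r = 0.980), ABHD17B (r = 0.978) and BHLHE40 (r = 0.973), all read on the same 8 arrays. BHLHE40, a transcriptional repressor, read 9.67, 8.89, 7.09 and 6.77 in VVM-GC arrays 1 to 4, against 5.81, 6.47, 5.01 and 5.49 in PM-GC arrays 1 to 4. Further genes, named after their values were seen, were ATF3 (r = 0.900), a stress-induced AP-1 partner, MAFF (r = 0.881), a small MAF protein, and IL1B (r = 0.808), an inflammatory cytokine. Of all genes, 0.679%, 1.005% and 2.75% had an r at least as high. FOS (r = -0.114), FOSL2 (0.0908) and ZFP36 (0.0324) lay near 0 by this measure, and for TNFAIP3 r was 0.442.

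ZFP36 has 1 probe set, MmugDNA.926.1.S1_at. It read 8.72, 8.07, 6.36 and 9.48 in VVM-GC arrays 1 to 4, against 4.83, 5.37, 5.23 and 5.04 in PM-GC arrays 1 to 4. Every VVM-GC array lay above every PM-GC array, but array 3 of VVM-GC had covered far less of the distance than the other 3. The PM-GC values all lay below the median signal of their arrays and, without detection calls, are not shown to be above background. The size of the change therefore depends on how low signals are treated. On the intensities as deposited ZFP36 rose by 3.04 (SE 0.54, limma adjusted p = 0.00307), with 8.16 ± 1.33 in VVM-GC and 5.12 ± 0.24 in PM-GC (SD, n = 4 each). With 32 added to each intensity, which damps changes of dim probe sets, the rise was 2.29 (adjusted p = 0.0154), and without VVM-GC array 3 it was 3.64 (adjusted p = 7.01e-05); it passed in all 15 alternatives, with these as the highest and lowest adjusted p.

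TNFAIP3 has 5 probe sets. The brightest, MmugDNA.40138.1.S1_at, read 11.97, 12.03, 10.21 and 11.87 in VVM-GC arrays 1 to 4, against 10.41, 10.72, 10.31 and 10.54 in PM-GC arrays 1 to 4. Arrays 1, 2 and 4 of VVM-GC stood above all of PM-GC, and array 3 stood below all of it. The means were 11.52 ± 0.88 in VVM-GC and 10.49 ± 0.18 in PM-GC (SD, n = 4 each), a difference of 1.02 (95% interval 0.20 to 1.85) that did not pass (limma adjusted p = 0.0727). Without VVM-GC array 3 the difference was 1.46 (adjusted p = 0.000119); over the 15 alternatives the adjusted p ran up to 0.168, and the average of the 5 probe sets rose by 0.92 (adjusted p = 0.0402).

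MmuSTS.4659.1.S1_at showed the same dip, with 10.78, 10.71, 8.06 and 10.45 in VVM-GC arrays 1 to 4, against 8.47, 9.35, 8.95 and 8.62 in PM-GC arrays 1 to 4. Its difference was 1.16 (adjusted p = 0.204 over all probe sets), or 1.80 without VVM-GC array 3 (adjusted p = 0.000544). MmugDNA.15654.1.S1_at and MmugDNA.15656.1.S1_at dipped less in array 3, at 9.08 and 7.82, and rose by 1.11 (SE 0.26, limma adjusted p = 0.018) and 1.18 (SE 0.22, limma adjusted p = 0.00598). The call of MmugDNA.15654.1.S1_at was lost without VVM-GC array 2, PM-GC array 1 or PM-GC array 4 (adjusted p = 0.0521, 0.0546 and 0.0523). The dimmest of the 5 probe sets differed by 0.13 (95% interval -0.34 to 0.61). Its signal lay below the median on every array and is not shown to be above background, so its small change says little.

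Over all 14 probe sets, 7 rose, none fell and 7 missed the threshold. Among all probe sets of the arrays 14.1% passed, 7.24% as higher and 6.85% as lower, and the median change was -0.07, against 1.07 for the 14. The groups did not overlap in 6 of the 14, against 19.3% of all probe sets. Probe sets of a gene read the same message, so these 14 values are not 14 independent observations. Leaving out VVM-GC array 3 raised the count of higher probe sets to 9, and the count was 5 to 9 over the arrays left out in turn.

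**Figure D2:**
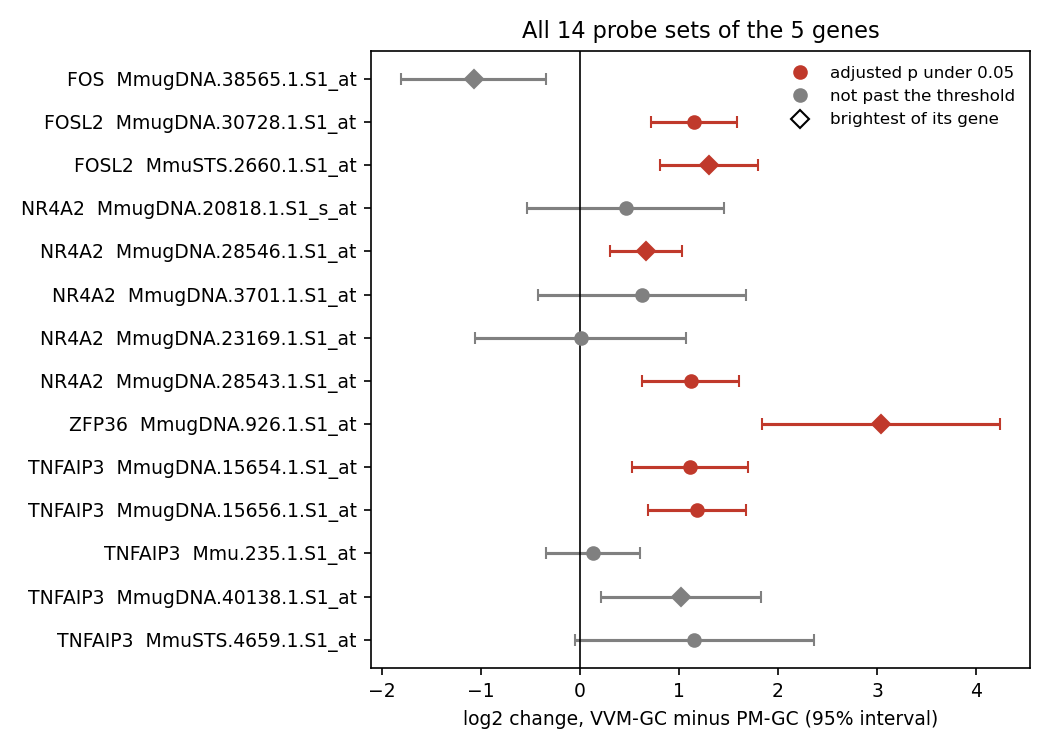
Log2 change, VVM-GC minus PM-GC (horizontal axis), of all 14 probe sets with 95% intervals from limma, with red marking an adjusted p under 0.05 and diamonds the brightest probe set of each gene. The point of FOS lies left of 0 and the other 13 lie to the right, with MmugDNA.23169.1.S1_at of NR4A2 at 0.01.

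Whether the genes vary together between arrays of a group was examined on the deviation of each array from its group mean. In VVM-GC, arrays ranked 4, 1, 2, 3 from high to low for both FOS and ZFP36, 4, 2, 1, 3 for NR4A2, and 2, 1, 4, 3 for TNFAIP3. Array 3 was thus last for 4 of the 5 genes, whereas it was the lowest VVM-GC array in 22.1% of all genes. Likewise array 4 was first for 4 of the 5, against 24.5% of all genes. Of the 14 probe sets, 8 were lowest in array 3 among the VVM-GC arrays. FOSL2 ranked 4, 2, 3, 1 over a narrow range.

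In PM-GC the shared order was lost for most pairs. FOS and NR4A2 again had the same order, 3, 1, 4, 2. ZFP36 ranked 2, 3, 4, 1, TNFAIP3 2, 4, 1, 3, and FOSL2 1, 3, 2, 4. The array with the least FOS and NR4A2, array 2, was that with the most ZFP36 and TNFAIP3. The ZFP36 values of PM-GC lay below the array medians and are not shown to be above background, so their order carries little weight.

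**Figure D3:**
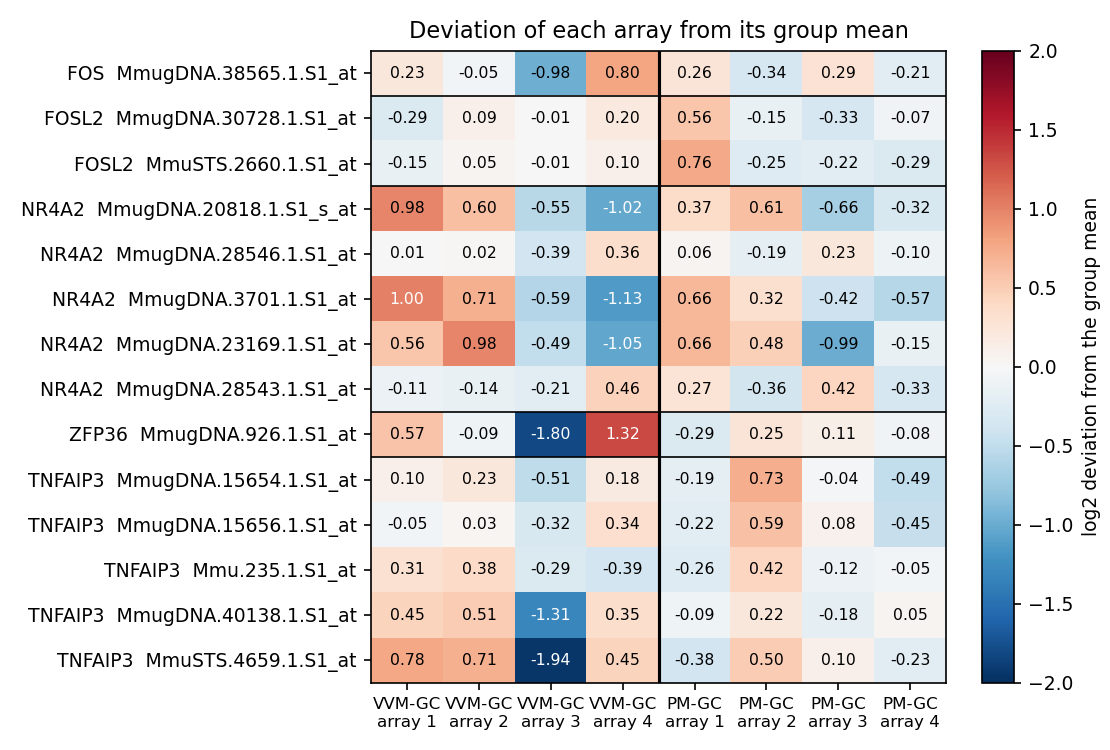
Deviation of each array from its group mean (log2, colour and printed value) for the 14 probe sets (rows) in 4 VVM-GC arrays (left) and 4 PM-GC arrays (right). Array 3 of VVM-GC is low for FOS (-0.98), ZFP36 (-1.80) and the brightest TNFAIP3 probe set (-1.31), while 3 NR4A2 probe sets are high in arrays 1 and 2 and low in arrays 3 and 4 of both groups.

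Over the 8 deviations, FOS and NR4A2 had a Pearson r of 0.964 (exact two-sided permutation p = 0.00347, adjusted p = 0.0347 over the 10 pairs) and a Spearman rho of 0.976 (exact permutation p = 0.0139, adjusted p = 0.139). Without the 2 arrays farthest from the median of FOS, VVM-GC arrays 3 and 4, r was 0.872. Of all genes, 0.0283% had an r with FOS at least as high. The adjusted p was above the threshold after repeated quantile normalization (0.104). It was also above it without any 1 array (0.0694 to 0.139), where r stayed between 0.934 and 0.982. With 1 array left out fewer arrangements remain, and a pair on its own cannot reach an adjusted p under 0.0694. The p-values of those fits therefore cannot tell whether the relation depends on 1 array. With the average of the 5 NR4A2 probe sets r was 0.115 (exact permutation, adjusted p = 0.901), so the relation holds for the brightest NR4A2 probe set and not for the gene's average.

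No other pair passed, and each r with ZFP36 includes its PM-GC values, which lay below the array medians. For FOS and ZFP36, r was 0.867 (rho 0.500, exact permutation p = 0.059, adjusted p = 0.295), but 0.0274 without VVM-GC arrays 3 and 4. For ZFP36 and TNFAIP3, r was 0.852 (rho 0.524, exact permutation p = 0.174, adjusted p = 0.434), and 0.44 without those 2 arrays. NR4A2 and ZFP36 had r = 0.790 (rho 0.405, exact permutation p = 0.101, adjusted p = 0.336), and FOS and TNFAIP3 had r = 0.683 (rho 0.190, exact permutation p = 0.309, adjusted p = 0.618). The relations of FOS, NR4A2 and ZFP36 with TNFAIP3, and of FOS and NR4A2 with ZFP36, rest on those VVM-GC arrays. Without VVM-GC array 3, r of FOS and TNFAIP3 was -0.857 and r of NR4A2 and TNFAIP3 was -0.889 (exact permutation, adjusted p = 0.0694 each). The 4 pairs with FOSL2 had r between -0.107 and 0.260 (exact permutation, adjusted p = 0.637 to 0.712). Pairs with a positive r numbered 8 of 10, and 5 without VVM-GC array 3.

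VVM-GC array 3 differed from the mean of the other 3 VVM-GC arrays by -2.40 for ZFP36, -1.75 for TNFAIP3, -1.30 for FOS, -0.51 for NR4A2 and -0.01 for FOSL2. Of all genes, 0.134%, 0.46%, 0.962%, 6.79% and 44.4% differed by as much or more in that direction. Relatives of the members went both ways in that array. JUNB differed by -0.86 and ZFP36L2 by -0.67, but the other measured JUN protein, JUND, by 0.32, and NR4A1 by 0.24. JUNB was lowest in array 3 of VVM-GC and JUND highest. The array with the highest ACTB difference was the same one, as given above. The GAPDH difference, at 2.53, 2.70, 2.76 and 2.66 in VVM-GC arrays 1 to 4, against 2.65, 2.81, 2.78 and 2.81 in PM-GC arrays 1 to 4, was highest in array 3 within VVM-GC but lower there than in 3 PM-GC arrays. Of 14 measured leukocyte markers, 8 were lowest in array 3 among the VVM-GC arrays, against 22.1% of all genes, and AIF1, CD79A, MS4A1, NKG7, S100A8 and S100A9 were not. Their summed level, as log2, was 10.78, 11.28, 9.60 and 10.55 in VVM-GC arrays 1 to 4, against 10.87 to 11.05 in PM-GC. Within VVM-GC the array order of that sum, 2, 1, 4, 3, was that of TNFAIP3. The sum adds linear intensities, so the brightest markers weigh most. In VVM-GC array 2 those were S100A8 (9.23) and S100A9 (8.69), and the first place of array 2 leans on them. In PM-GC the sum was 10.87, 11.01, 10.93 and 11.05 in arrays 1 to 4, another order than the 2, 4, 1, 3 of TNFAIP3.

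The leukocyte markers differed among themselves. TYROBP read 8.21, 8.43, 6.19 and 8.04 and LYZ 7.55, 7.62, 4.18 and 8.12 in VVM-GC arrays 1 to 4. S100A8, a neutrophil and monocyte protein, read 6.70, 9.23, 5.42 and 4.71 there, lowest in array 4, and AIF1 read 5.82, 6.14, 6.30 and 6.39, lowest in array 1. TYROBP averaged 7.72 in VVM-GC and 7.81 in PM-GC (adjusted p = 0.91), and CSF1R, the macrophage growth factor receptor, was lower in VVM-GC at 7.35, against 9.44 in PM-GC. No marker is listed at 0. The summed level of endothelial markers was 9.30 to 10.22 in VVM-GC and 9.35 to 9.59 in PM-GC, and that of erythrocyte markers 8.51 to 10.57 in VVM-GC and 10.73 to 11.20 in PM-GC. Stromal markers summed to 9.40 to 10.25 in VVM-GC and 9.43 to 9.64 in PM-GC, oocyte markers to 9.39 to 9.87 in VVM-GC and 9.40 to 9.70 in PM-GC. Theca markers, whose sum includes STAR, a gene that luteinizing granulosa cells also express, were at 12.28 to 13.26 in VVM-GC and 10.73 to 10.96 in PM-GC. The part of other cells or of RNA quality in the array 3 values was not tested, and in bulk RNA fewer cells of a type and less RNA per cell cannot be told apart.

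By the same measure, genes within the limits on signal and SD given below were ranked by likeness to each member over the 8 deviations. The closest were MEIS2 (r = 0.968), ANTXR2 (0.963) and TPST1 (0.963) for FOS, and OLFML2B (0.943), RORA (0.900) and GANC (0.900) for FOSL2. With r = 0.964 to FOS, NR4A2 was not ranked there because its within-group SD was under the limit. NR4A2 was followed by FOS itself, then PBX3 (0.935) and TC2N (0.934). TMEM41A (0.986), IGF1 (0.982) and RAPGEF4 (0.969) were closest to ZFP36, and KCNK5 (0.964), IFI30 (0.955) and SGK1 (0.944) to TNFAIP3. Across all genes the median r with each member lay between -0.06 and -0.01.

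The rest of the pathway was read from 8 gene lists, chosen with earlier results of these data known. Of 158 measured genes in them, 18 rose, 18 fell and 122 missed the threshold, 22.8% past the threshold against 23.8% of all genes, with a median change of -0.003. Without the 5 genes the counts were 15 higher and 17 lower of 153. The lists therefore moved about as often as genes in general.

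Among AP-1 subunits and partners, 3 of 13 were higher, 1 was lower and 9 missed the threshold (median 0.18). Besides FOSL2, BACH1, a repressor that pairs with small MAF proteins, rose by 2.99 (SE 0.27), and MAFG, one of those partners, by 0.99 (SE 0.23). FOS was the gene that fell. JUNB differed by -0.39 (adjusted p = 0.26) and JUND by -0.38 (adjusted p = 0.08), and MAFF by 1.10 (adjusted p = 0.114). The average of the 2 BACH1 probe sets rose by 1.99.

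Among other immediate early genes, a list that includes NR4A2, 5 of 27 rose, 2 fell and 20 missed the threshold (median 0.10). NR4A2 itself was one of those that rose. TRIB1, a pseudokinase, rose by 3.62 (SE 0.50), NAB1, a corepressor of EGR factors, by 1.71 (SE 0.33), MCL1, which blocks apoptosis, by 1.58 (SE 0.15), and KLF2, a zinc finger factor, by 1.12 (SE 0.25). NR4A1, the paralog of NR4A2, went the other way: it read 10.43, 10.68, 10.55 and 9.81 in VVM-GC arrays 1 to 4, against 11.53, 11.26, 11.11 and 10.82 in PM-GC arrays 1 to 4, and fell by 0.82 (SE 0.21, limma adjusted p = 0.0208). Its second probe set fell by 1.12, and the call was lost without PM-GC array 1 or 2 (adjusted p = 0.0588 and 0.0522). IER5L fell by 0.77. The averages of all probe sets were lower for TRIB1 (1.73), NAB1 (1.08) and MCL1 (0.59), whose brightest probe set carries a suffix for probes that may match other transcripts. Second probe sets did not pass, at -0.16 for TRIB1, 0.455 for NAB1, -0.39 for MCL1 and 0.54 for KLF2. Their limma adjusted p-values were 0.166 to 0.483 over all probe sets.

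Of 22 kinases and factors upstream of these genes, 2 rose, 3 fell and 17 missed the threshold (median -0.07). ELK3, an ETS partner of serum response factor, rose by 2.09 (SE 0.17), although its second probe set differed by -0.16 and the average by 0.97. MAPKAPK2, the kinase that phosphorylates ZFP36 and stops it from recruiting the deadenylase, rose by 0.86 (SE 0.14), with 2 further probe sets at 0.08 and 0.12. MAPKAPK3, its close relative, fell by 0.83 (SE 0.13). ATF1 and CRTC2, a factor and a coactivator of the cyclic AMP response, fell by 0.89 and 0.61, but the average of 6 ATF1 probe sets was at -0.17 (adjusted p = 0.256), and CRTC2 did not pass without PM-GC array 1 or 2 (adjusted p = 0.0523 and 0.0543).

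Of 12 ARE-binding proteins, 2 rose, ZFP36 being one of them, 2 fell and 8 missed the threshold (median -0.06). ZFP36L2, a relative of ZFP36 with the same zinc fingers, moved against it: 10.85, 10.47, 9.32 and 8.65 in VVM-GC arrays 1 to 4, against 12.51, 11.65, 11.70 and 10.82 in PM-GC arrays 1 to 4. It fell by 1.85 (SE 0.50, limma adjusted p = 0.0232), a call that was lost without VVM-GC array 3 or PM-GC array 1, 2 or 3 (adjusted p = 0.0511 to 0.0636). With its 3 probe sets averaged, ZFP36L2 fell by 1.25 (adjusted p = 0.0234), and the change of one of them, MmugDNA.5724.1.S1_at, was -0.32 (adjusted p = 0.256 over all probe sets). ZFP36L1 differed by -0.18 (adjusted p = 0.34). ELAVL1, or HuR, which binds AREs and stabilizes the message, rose by 1.82 (SE 0.21, limma adjusted p = 0.00022). The second lower call was TIA1, which represses translation of ARE messages. Its mean signal was 4.84 in VVM-GC and 5.41 in PM-GC, both below the array medians and not shown to be above background, with a difference of -0.57, or -0.30 with 32 added to each value.

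Of 17 genes of deadenylation, none rose, 4 fell and 13 missed the threshold (median -0.14). That is 23.5% past the threshold, against 23.8% of all genes, of which 12.5% were lower. The deadenylase subunit CNOT8 fell by 1.47 (SE 0.20), with all 3 of its probe sets lower by 1.07 to 1.47. CNOT9, a scaffold subunit of that complex, fell by 0.70, TOB2, an adaptor, by 0.58, and PAN3, of the other deadenylase, by 0.53. The averages of the probe sets of CNOT9 and TOB2 did not pass (adjusted p = 0.0716 and 0.0924), and TOB2 did not pass without VVM-GC array 1, 2 or 4 or PM-GC array 1 (adjusted p = 0.0507 to 0.0689). Of 25 genes of decapping and exonucleases, 2 rose, 5 fell and 18 missed the threshold (median -0.18). Exosome subunits went both ways, with EXOSC9 lower by 0.77 (SE 0.17), EXOSC8 lower by 0.84 (SE 0.25), EXOSC5 lower by 0.57, and EXOSC10 higher by 0.59 (SE 0.15). LSM4, of the ring that aids decapping, fell by 0.68, and XRN2, a nuclear exonuclease, rose by 0.53, but was at 0.24 in the average of its 4 probe sets (adjusted p = 0.206). EXOSC8 lost its call without VVM-GC array 1, 2 or 4 or PM-GC array 3 or 4 (adjusted p = 0.0723 to 0.0901), and with 32 added to each value (0.0528).

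Of 17 measured messages known as ZFP36 targets, 1 rose, 1 fell and 15 missed the threshold (median 0.07). PLAUR, the urokinase receptor, rose by 3.26 (SE 0.35, limma adjusted p = 0.000175), or by 2.03 when its 3 probe sets were averaged. One of these, MmugDNA.32468.1.S1_at, differed by -0.15 (limma adjusted p = 0.513 over all probe sets). The message that fell was FOS. TNF differed by -0.17 (adjusted p = 0.38) and IL6 by 0.07 (adjusted p = 0.83). Mean signals were 5.36 in VVM-GC and 5.53 in PM-GC for TNF, and 4.97 in VVM-GC and 4.90 in PM-GC for IL6. These lay near or below the array medians and are not shown to be above background. IL1B read 12.01, 11.84, 7.59 and 9.65 in VVM-GC arrays 1 to 4, against 8.79, 8.15, 4.75 and 7.64 in PM-GC arrays 1 to 4, a difference of 2.94 that did not pass (adjusted p = 0.0827). DUSP1, a MAP kinase phosphatase, was at 12.94, 12.95, 11.89 and 13.06 in VVM-GC arrays 1 to 4, again with array 3 lowest, and differed by -0.37 (adjusted p = 0.31).

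Of 28 measured genes around TNFAIP3 and NF-kB, 3 rose, 1 fell and 24 missed the threshold (median 0.04). TNIP2, which binds TNFAIP3, rose by 1.25 (SE 0.24, limma adjusted p = 0.00446), and TRADD, an adaptor of the tumour necrosis factor receptor, rose by 0.51 (SE 0.10). BCL3 rose by 0.51 and NFKB2 fell by 0.59. The call of BCL3 was lost without any 1 of 7 arrays (adjusted p = 0.0596 to 0.0885). With all arrays, the BCL3 call was also lost after repeated quantile normalization (0.0743) and when its probe sets were averaged (0.282). That of NFKB2 was lost without VVM-GC array 1 or 3 or PM-GC array 1, 2 or 3 (adjusted p = 0.0686 to 0.0914), with the replicate block (0.0923) and when its probe sets were averaged (0.264). NFKBIA, the inhibitor that NF-kB itself induces, differed by 0.11 (adjusted p = 0.60) and TNIP1, another partner, by 0.17 (adjusted p = 0.44).

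**Figure D4:**
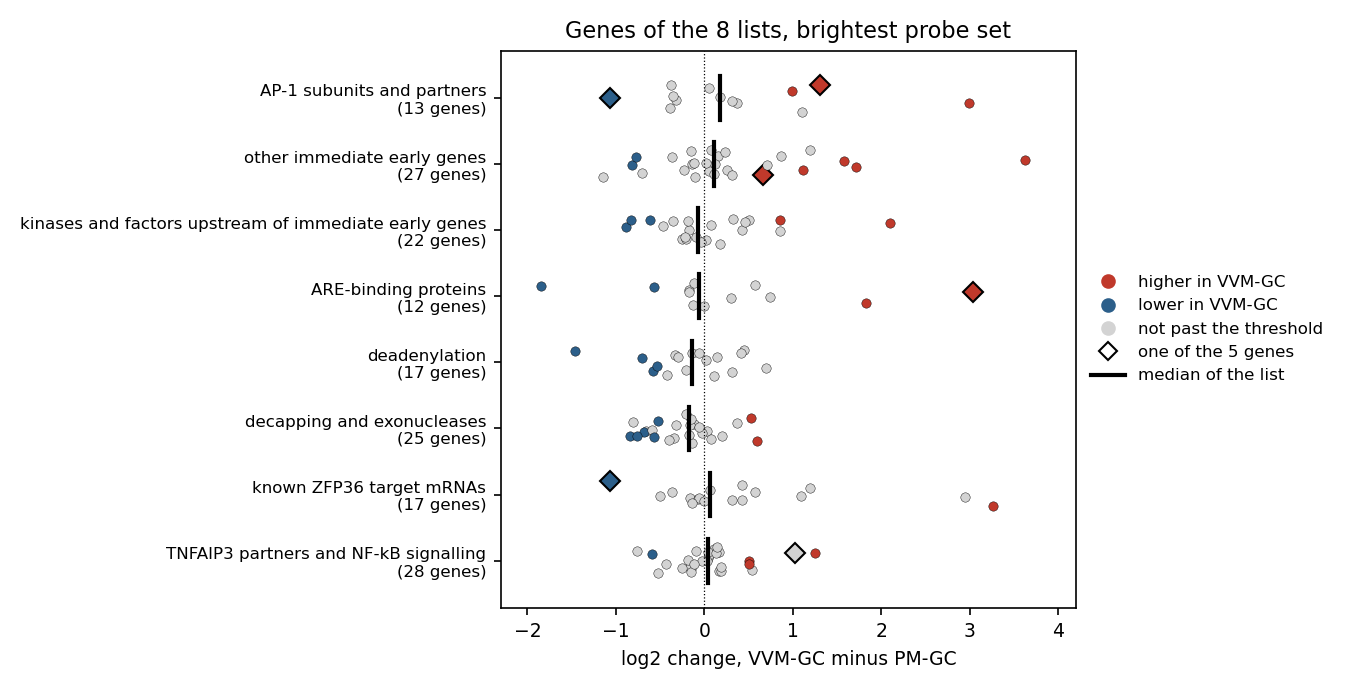
Log2 change, VVM-GC minus PM-GC (horizontal axis), of the measured genes of 8 lists (rows), with red for genes higher and blue for genes lower at an adjusted p under 0.05, grey for the others, diamonds for FOS, FOSL2, NR4A2, ZFP36 and TNFAIP3, and a black bar for the median of the list. The medians lie between -0.18 and 0.18, and ZFP36 at 3.04 and ZFP36L2 at -1.85 are the outermost ARE-binding proteins.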

How the data were processed

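RNA from 4 VVM-GC and 4 PM-GC samples was measured on Affymetrix arrays. The submitters' processing notes name RMA and Affymetrix Expression Console, with releases not given in the sources used. The deposited intensity of each probe set is on a linear scale, with medians of 43.5 to 46.5 per array, and was converted to log2. Of 52865 rows, 99 array controls were left out. In the platform annotation 24956 probe sets have 1 symbol, 361 have several and 27449 lack one, and symbols were updated through the gene ID for 24616. The table carries no detection calls, and precision is limited by how many arrays there are.

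Groups were compared with limma 3.58.1 in R 4.3.3 (lmFit and eBayes) over all probe sets and over 14132 genes, and the procedure was tested on simulated data. Pairs of members were compared by exact permutation of arrays within groups (576 arrangements, two-sided, smallest p 0.00174). The 5 genes, the lists and the tests were chosen with earlier results of these data known. Genes named from the lists are up to 4 per list and direction with the widest change among those past the threshold. Likeness was ranked over genes above the median mean signal with a within-group SD of at least 0.3, leaving out uninformative symbols. JUNB, JUND, MAFF, ATF3, ZFP36L1, TNF, IL6, IL1B, DUSP1, NFKBIA, TNIP1 and the leukocyte markers were named after their values were seen. Alternatives were repeated quantile normalization, median centring, 32 added to each value, a filter on dim probe sets (above the median of all values on at least 4 arrays), a variance trend, the replicate number as a block, the average of a gene's probe sets, and each array left out in turn. Sequences of the probe sets and promoters were not used here.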

Additional observations from a re-analysis of the deposited data

Results flagged for a closer look

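A sample far from the rest of its group was looked for in 90 groups of 4 arrays (14 member probe sets and 31 list genes, in both groups), and 8 were found; chance gives about 1 in 20. Of these, 5 are in the member probe sets. In 3 TNFAIP3 probe sets the sample is VVM-GC array 3: MmugDNA.40138.1.S1_at read 10.21 there and 11.87 to 12.03 in the other VVM-GC arrays, MmuSTS.4659.1.S1_at read 8.06 and 10.45 to 10.78, and MmugDNA.15654.1.S1_at read 9.08 and 9.70 to 9.82. These probe sets read 1 message and are not independent. FOSL2 (MmuSTS.2660.1.S1_at) was high in PM-GC array 1, at 11.05, with 10.003 to 10.07 in the other PM-GC arrays. NR4A2 (MmugDNA.28543.1.S1_at) was high in VVM-GC array 4, at 8.17, with 7.49 to 7.59 in the others. Among list genes, BACH1 was low in VVM-GC array 3 (9.03, others 9.94 to 10.07), KLF2 was low in PM-GC array 4 (7.58, others 8.18 to 8.31), and TOB2 was high in PM-GC array 1 (9.09, others 8.49 to 8.59).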

How the results depend on the processing

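The counts of all probe sets and genes past the threshold stayed within 1.5 times in every alternative run (5682 to 7715 probe sets, 2699 to 3539 genes), as did the higher calls among member probe sets (5 to 9) and list genes (17 to 24). FOS lost its call with median centring (-1.03), with 32 added to each value (-1.06), with the replicate block (-1.07) and in 7 of the 8 fits that left out an array, with changes of -1.18 to -0.74, but kept it without VVM-GC array 4 (-1.34). NR4A2 lost its call with the replicate block (0.67) and with the average of its probe sets (0.58). TNFAIP3 passed with the replicate block (1.02), with the average (0.92) and without VVM-GC array 3, within a range of 0.85 to 1.46 over the arrays left out. The count of member probe sets that were lower, 0 in the report, was 1 (FOS) after repeated quantile normalization and with the filter on dim probe sets, and 0 to 1 over the arrays left out. Lower list genes numbered 11 to 18 over the arrays left out, with 11 without PM-GC array 1. Pairs past the threshold numbered 0 after repeated quantile normalization and 0 with averaged probe sets. They numbered 0 to 0 over the arrays left out, where too few arrangements remain for a pair on its own to pass. Pairs with a positive r numbered 5 to 10. Signs turned, over the arrays left out, for NR4A2 probe set MmugDNA.23169.1.S1_at (-0.32 to 0.36, with -0.18, -0.32, -0.32 and -0.04 in the fits that turned) and for r of FOS and TNFAIP3 (-0.857 to 0.770), NR4A2 and TNFAIP3 (-0.889 to 0.709), ZFP36 and TNFAIP3 (-0.159 to 0.942), FOSL2 and ZFP36 (-0.256 to 0.150) and FOSL2 and TNFAIP3 (-0.350 to 0.00676). The cause was not tested. The labels do not say whether same-numbered arrays of the groups are paired. Their deviations correlated at 0.0111, 0.165, 0.0499 and -0.0261 across genes, which does not settle it.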
